A study of Homo sapiens with 22 samples.

Results

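HOXA3, HOXA4, HOXA5, HOXA6, HOXA7, HOXA9, HOXA10, MEIS1, PBX3 and MEF2C form the HOXA and MEIS1 program of acute myeloid leukemia (AML), and their mRNA levels are described here in MOLM-13 and NB4 cells with and without FP54, a degrader of the m6A demethylase FTO. These 10 genes, 7 of them in the HOXA cluster, were taken by symbol from the 20411 protein-coding genes of each RNA-seq table. MOLM-13 is an AML cell line that carries a fusion of KMT2A (also called MLL) with MLLT3. NB4 is an acute promyelocytic leukemia line with a fusion of PML and RARA. Wild-type cells of each line were kept for 48 hours with 2 μM FP54 or with DMSO, the solvent, and 3 libraries were made per treatment and line. The NB4 table is assigned to that line by its name alone, since its columns give treatment and replicate. Each line comes from 1 patient's leukemia and stands for 1 genotype, and nothing says whether the 3 libraries of a group came from separate cultures, so that the p-values below measure the spread between these libraries, which may be technical.

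HOX genes encode homeodomain transcription factors, lie in 4 clusters (A to D), and are used along a cluster from one end to the other in development and in blood formation. In blood stem and progenitor cells HOXA9 and its neighbors are active and are switched off as myeloid cells mature. KMT2A and its fusion proteins keep the HOXA genes and MEIS1 transcribed, in part through a CXXC domain that binds DNA with unmethylated CG dinucleotides. MEIS1 and PBX3 belong to the TALE class of homeodomain proteins and bind DNA together with HOX proteins, and MEF2C is a MADS-box transcription factor that KMT2A fusions also activate. Leukemias with the PML and RARA fusion are known for low HOXA9 and MEIS1 mRNA.

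The promoters of the members on which the contrast between the lines turns are shown here as 300 bases around the RefSeq start of transcription (GRCh38.p14, 5′ to 3′ on the strand of the gene), with every CG dinucleotide in capitals. HOXA9 (chr7:27165488-27165787, minus strand) was the highest HOXA gene in MOLM-13, HOXA10 (chr7:27179812-27180111, minus strand) the highest in NB4, HOXA7 (chr7:27156626-27156925, minus strand) rose with FP54 in NB4, and MEIS1 (chr2:66434875-66435174, plus strand) encodes the partner of HOXA9.
HOXA9: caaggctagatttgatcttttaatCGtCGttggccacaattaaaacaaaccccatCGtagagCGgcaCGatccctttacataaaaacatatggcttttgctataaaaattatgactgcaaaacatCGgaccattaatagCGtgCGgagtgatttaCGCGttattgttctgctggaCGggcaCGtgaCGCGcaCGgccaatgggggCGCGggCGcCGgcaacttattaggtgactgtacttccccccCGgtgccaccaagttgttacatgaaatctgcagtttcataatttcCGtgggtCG
HOXA10: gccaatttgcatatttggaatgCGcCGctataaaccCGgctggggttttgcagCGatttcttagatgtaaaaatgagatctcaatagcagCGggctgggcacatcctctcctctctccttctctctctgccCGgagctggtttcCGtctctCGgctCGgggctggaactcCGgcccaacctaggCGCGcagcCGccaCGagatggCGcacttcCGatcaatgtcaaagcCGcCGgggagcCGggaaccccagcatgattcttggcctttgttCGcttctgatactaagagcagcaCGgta
HOXA7: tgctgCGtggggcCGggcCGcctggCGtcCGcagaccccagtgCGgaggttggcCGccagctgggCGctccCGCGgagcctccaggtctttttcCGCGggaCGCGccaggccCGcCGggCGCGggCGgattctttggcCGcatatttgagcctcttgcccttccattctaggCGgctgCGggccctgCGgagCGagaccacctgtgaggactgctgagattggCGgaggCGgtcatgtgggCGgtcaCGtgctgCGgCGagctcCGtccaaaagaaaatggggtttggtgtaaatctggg
MEIS1: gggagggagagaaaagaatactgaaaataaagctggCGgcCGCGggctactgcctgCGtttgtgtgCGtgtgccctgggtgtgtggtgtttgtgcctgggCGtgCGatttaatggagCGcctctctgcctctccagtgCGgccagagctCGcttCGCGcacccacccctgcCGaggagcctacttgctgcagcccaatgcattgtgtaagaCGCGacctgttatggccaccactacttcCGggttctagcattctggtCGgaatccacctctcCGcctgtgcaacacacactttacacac
These windows held 22 (HOXA9), 21 (HOXA10), 31 (HOXA7) and 18 (MEIS1) CG dinucleotides, where the median over 35116 RefSeq promoter windows of the same length was 14. Fewer were held by 62.3% (HOXA9), 60.5% (HOXA10), 79.3% (HOXA7) and 55.5% (MEIS1) of all windows. On either strand, the letters TGACAG, the core bound by MEIS proteins, were in 15.8% of all windows and in none of these 4. Over the 22 windows listed for 9 members, they were in 5, namely those of HOXA4 and PBX3 and 3 of the 7 of MEF2C. For the composite site of PBX with a posterior HOX protein 2 forms were searched. TGATTTAT was in 0.846% of all windows and in none of the 22, and TGATTTAC was in 0.626% of all windows and in that of HOXA9. HOXA10 has a second window (chr7:27174271-27174570, minus strand) with 25 CG dinucleotides and none of these motifs. The search concerned these letters in these windows, and no motif contains another. DNA methylation and binding of KMT2A were not measured in these libraries.

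Library totals, inferred from the deposited values and not counted, ranged from 16299702 to 17346914 reads with DMSO and from 5829731 to 19191055 with FP54 in MOLM-13. In NB4 they ranged from 20654056 to 22344265 reads with DMSO and from 10595647 to 13071303 with FP54. Which reads the authors included in these totals is not stated. The 3 MOLM-13 libraries with FP54 had unequal depth, FP54 replicate 2 being the shallowest. Values are RPKM, reads scaled by exon length and by the library total. Multiplied by exon length and divided by a step of 1 read fitted for each library, they gave whole reads for the 10 members in all 12 libraries. Of 10 AML and promyelocyte markers, 9 had a mean of at least 1 RPKM in MOLM-13 and 8 in NB4. Of 9 markers of other cell types, 1 had a mean of at least 1 RPKM in MOLM-13 and 2 in NB4. NKG7 was at 71.1 to 78.1 RPKM in MOLM-13 and at 30.8 to 82.8 RPKM in NB4. EPCAM was at 7.83 to 11.3 RPKM in NB4 and at no more than 0.0474 RPKM in MOLM-13. PPBP, a platelet gene, was at 0 in all 12 libraries, and HBB of red cells was at 0 in MOLM-13 and in NB4 with DMSO. In MOLM-13, FTO mRNA was at 1.01 ± 0.0767 RPKM under DMSO and 1.01 ± 0.118 RPKM under FP54, and in NB4 at 2.73 ± 0.180 and 2.03 ± 0.0782 RPKM (SD, n = 3 in each group, log2 fold change −0.41 in NB4, not called). The FTO mRNA does not report on FTO protein, which is what FP54 degrades. The mean over 400 olfactory receptor genes, which leukemia cells are not known to use, was 0.00381 to 0.00833 RPKM in MOLM-13, 0.00175 to 0.00387 in NB4 with DMSO, and 0.0509 to 0.0544 in NB4 with FP54.

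**Figure D1:**
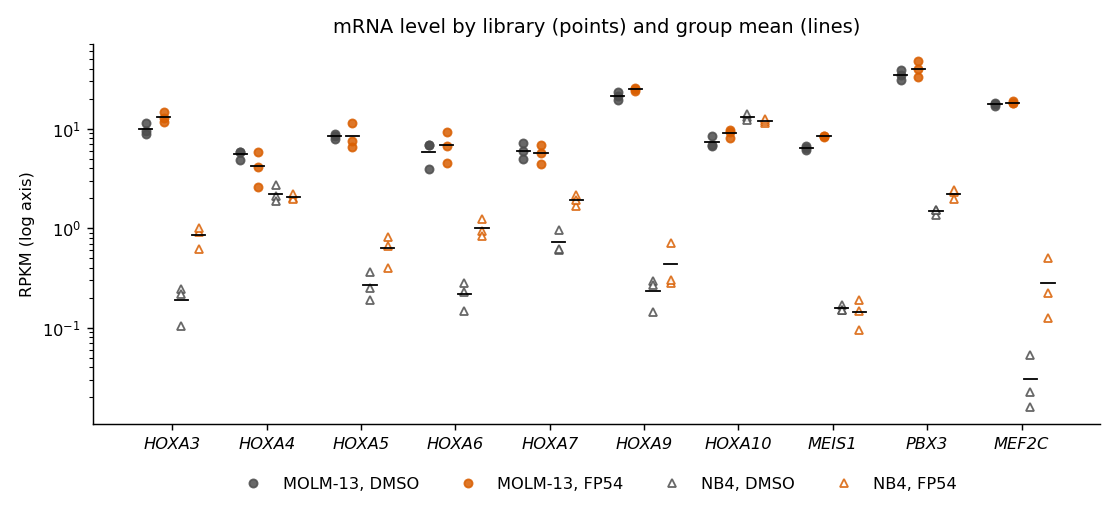
mRNA level of the 10 members (horizontal axis) in RPKM on a log axis, with 1 point per library and a line at the mean of 3, for MOLM-13 (filled circles) and NB4 (open triangles) with DMSO (gray) or FP54 (orange). All 10 members lay above 2 RPKM in every MOLM-13 library, whereas in NB4 only HOXA4, HOXA7, HOXA10 and PBX3 reached a mean of 1 RPKM over 6 libraries.

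Without FP54, the program was on in MOLM-13 and mostly low in NB4. With DMSO, PBX3 was the highest member in MOLM-13 at 34.6 ± 4.12 RPKM (SD, n = 3), followed by HOXA9 at 21.3 ± 2.14 RPKM and MEF2C at 17.6 ± 0.660 RPKM. Each of these 3 lay above the next member in all libraries. HOXA3, at 9.87 ± 1.43 RPKM, came next, and from there down to HOXA4, at 5.49 ± 0.594 RPKM, each gene overlapped with the next (HOXA5, HOXA10, MEIS1, HOXA7, HOXA6). In NB4 the order was another one. HOXA10 led at 13.2 ± 0.925 RPKM (SD, n = 3), well apart from HOXA4 at 2.22 ± 0.424 RPKM, PBX3 at 1.47 ± 0.0887 RPKM and HOXA7 at 0.723 ± 0.200 RPKM, each of which lay apart from the next. HOXA5, HOXA9, HOXA6 and HOXA3 followed between 0.270 and 0.190 RPKM and overlapped in that order. HOXA3 also overlapped with MEIS1, which was at 0.157 ± 0.0101 RPKM and above MEF2C at 0.0308 ± 0.0200 RPKM. The tables of the lines were made separately, so that levels are set side by side and not tested.

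HOXA9, the member most used as a mark of this program, was read 1174, 945 and 1127 times in the 3 MOLM-13 libraries with DMSO and 9, 19 and 18 times in those of NB4, which were deeper. MEF2C was read 3523, 3393 and 3431 times in MOLM-13 and 13, 4 and 6 times in NB4. MEIS1 was read 1152, 1188 and 1149 times in MOLM-13 and 38, 35 and 37 times in NB4. HOXA10 went the other way, with 519, 401 and 437 reads in MOLM-13 and 1002, 970 and 1170 in NB4. The ratio of HOXA9 to HOXA10 in RPKM was therefore 2.60 to 3.15 over the 6 MOLM-13 libraries and 0.0110 to 0.0635 over the 6 NB4 libraries. HOXA9 and HOXA10 share 13.1% and 9.93% of their exonic bases with a readthrough gene on the same strand that was listed at 0 in all 12 libraries, and reads over both can be assigned to neither with certainty.

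**Figure D2:**
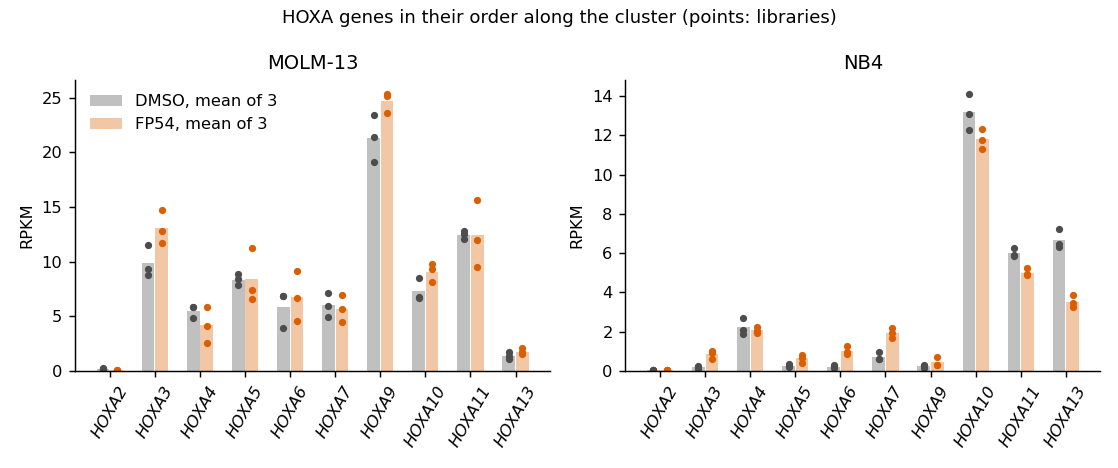
RPKM (vertical axis, with its own scale for each line) of 10 HOXA genes in their order along chromosome 7, with bars at the mean of 3 libraries and points for the libraries, for DMSO (gray) and FP54 (orange). In MOLM-13 the genes from HOXA3 to HOXA11 were all used with a peak at HOXA9, whereas in NB4 the level sat at HOXA10, HOXA11 and HOXA13 with a smaller share at HOXA4.

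On the minus strand of chromosome 7 in hg38, from HOXA2 (27100354 to 27102686) to HOXA13 (27193503 to 27200091), 9 of 10 HOXA genes examined had at least 1 RPKM in every MOLM-13 library. The gene below it was HOXA2, toward the end that acts first in development. In NB4 with DMSO 4 of the 10 genes reached 1 RPKM, namely HOXA4, HOXA10, HOXA11 and HOXA13. HOXA10, HOXA11 and HOXA13, the genes at the posterior end, made up 25.7% to 27.8% of the summed RPKM of these genes in the 6 MOLM-13 libraries. In NB4 they made up 84.5% to 88.2% with DMSO and 73.3% to 75.2% with FP54. The share was thus lower with FP54 in all 3 NB4 libraries than in any with DMSO, whereas in MOLM-13 the treatments overlapped. The sum over the 10 genes was 74.0 to 81.6 RPKM with DMSO and 75.2 to 99.1 RPKM with FP54 in MOLM-13, which overlap, and 29.4 to 30.1 and 26.7 to 28.1 RPKM in NB4, which do not.

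FP54 against DMSO asked whether the program changes with the compound. FTO protein was not measured in these libraries, and DMSO was the only control. A gene was called changed where limma, fitted over all genes with a mean of at least 1 RPKM, gave a log2 fold change of 0.5 or more in either direction with p below 0.01. In MOLM-13 all 10 members were tested and none was called, where 18.3% of the 9710 genes tested were (9.04% lower and 9.3% higher). At an adjusted p below 0.05 (Benjamini-Hochberg), which 19.2% of the genes passed (9.32% lower and 9.84% higher), the count was also 0 of 10. At an unadjusted p below 0.05 it was 2, HOXA3 and MEIS1. At least those 19.2% of the genes pass that looser level, so that 2 of 10 says nothing about the members as a group. The median log2 fold change of the 10 members was 0.20, and that of all genes tested was 0.0033. With 3 libraries on each side, 0.1 is the smallest two-sided p of an exact permutation test, and in bulk RNA fewer cells with a transcript and less of it per cell cannot be told apart.

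MEIS1, the TALE cofactor of HOXA9, was at 6.36, 6.66 and 6.05 RPKM in DMSO replicates 1 to 3 and at 8.37, 8.40 and 8.19 RPKM in FP54 replicates 1 to 3 of MOLM-13. All 3 FP54 libraries lay above all 3 DMSO libraries, with little spread within a group. The log2 fold change was 0.38 (SE 0.14, 95% interval 0.08 to 0.69, adjusted p = 0.0737 from limma), under the minimum size for a call. With other settings and all libraries its adjusted p lay between 0.0508 and 0.161. HOXA3, an anterior cluster gene, was at 9.35, 11.5 and 8.78 RPKM with DMSO and at 14.8, 11.7 and 12.9 RPKM with FP54. These groups did not overlap either, although DMSO replicate 2 and FP54 replicate 2 were close. Its log2 fold change was 0.41 (SE 0.16, 95% interval 0.05 to 0.76, adjusted p = 0.0983). Without DMSO replicate 2 it passed the call at 0.52 with an adjusted p of 0.0436.

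HOXA9 itself was at 23.4, 19.1 and 21.4 RPKM with DMSO and at 25.4, 23.6 and 25.2 RPKM with FP54 in MOLM-13. The groups were just apart, with the highest DMSO library next to the lowest FP54 library, and the log2 fold change was 0.22 (SE 0.13, 95% interval −0.08 to 0.52, adjusted p = 0.275). HOXA3, HOXA9 and MEIS1 were thus the 3 of 10 members whose libraries lay all higher with FP54, and none lay all lower, where 20.2% and 17.0% of the 9710 genes did. A share of 3 in 10 is near that background. HOXA10 was at 8.46, 6.64 and 6.80 RPKM with DMSO and at 9.76, 8.10 and 9.31 RPKM with FP54, which overlap (log2 fold change 0.31, 95% interval −0.04 to 0.66).

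The remaining members of MOLM-13 overlapped between treatments. HOXA4 had the one negative estimate of some size, −0.46 (95% interval −1.03 to 0.11), and its 3 FP54 libraries ran from 2.58 RPKM on 26 reads in the shallow replicate 2 to 5.82 RPKM. HOXA5, HOXA6 and HOXA7 had log2 fold changes of −0.03 (95% interval −0.46 to 0.41), 0.20 (−0.42 to 0.82) and −0.08 (−0.53 to 0.36), and the sign of each changed with single libraries left out. PBX3, the dimer partner of MEIS1 and HOXA9, was at 34.5, 38.8 and 30.6 RPKM with DMSO and 47.3, 33.1 and 39.3 RPKM with FP54. Its log2 fold change was 0.20 (95% interval −0.17 to 0.56). MEF2C was the steadiest member, at 18.1, 17.7 and 16.8 RPKM with DMSO and 18.0, 17.9 and 18.9 RPKM with FP54. Its log2 fold change was 0.06 (SE 0.13), with a 95% interval from −0.22 to 0.34. The intervals of HOXA9, HOXA10, MEIS1, PBX3 and MEF2C all lay above −0.5, the size of decrease that a call needs, as did those of HOXA3, HOXA5 and HOXA6. Those of HOXA4 and HOXA7 did not, so that a decrease of that size in HOXA4 and HOXA7 was not measured precisely enough to be told from none. On the other side, the intervals of HOXA3, HOXA6, HOXA9, HOXA10, MEIS1 and PBX3 reached above 0.5, so that an increase of the size of a call was not excluded for them.

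**Figure D3:**
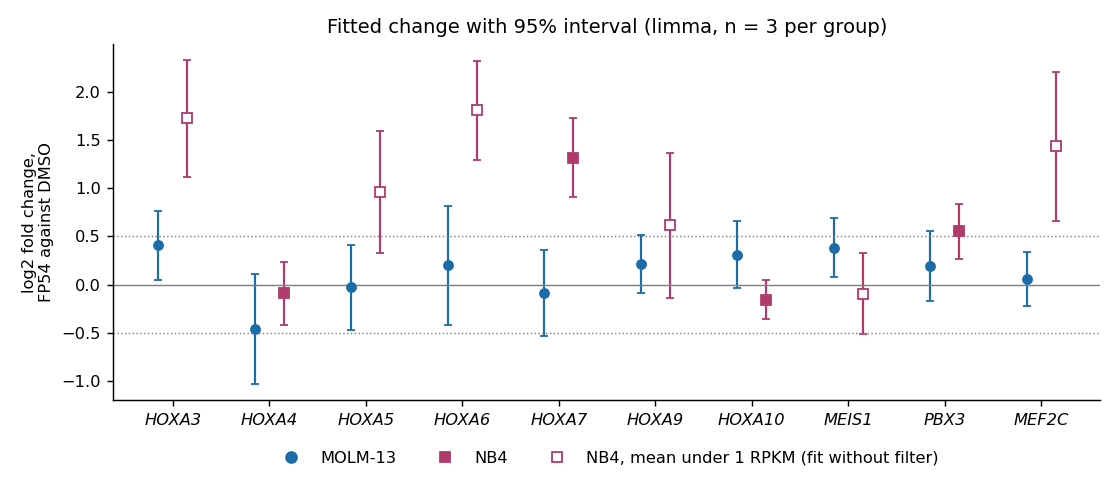
Fitted log2 fold change of FP54 against DMSO (vertical axis) for each member, with 95% intervals from limma and dotted lines at 0.5 and −0.5, the minimum for a call. MOLM-13 values (blue circles) lie between −0.46 and 0.41, and the NB4 values (squares) reach above 1 for HOXA3, HOXA6, HOXA7 and MEF2C, of which HOXA3, HOXA6 and MEF2C (open squares) had means under 1 RPKM.

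In NB4 HOXA7 and PBX3 rose from a low level, while HOXA10, the member with the most mRNA, did not pass the test. With a mean of at least 1 RPKM, 4 members were tested and 2 were called, both higher, where 29.3% of the 9853 genes tested were called and 18.6% were called higher (10.7% lower). At an adjusted p below 0.05 the same 2 of 4 passed, where 51.8% of the genes did (22% lower and 29.8% higher). HOXA7 came over that minimum only through its FP54 libraries, so that the count supports nothing about the members as a group. HOXA7 was at 0.602, 0.954 and 0.613 RPKM in DMSO replicates 1 to 3, on 30, 49 and 33 reads, and at 1.68, 2.17 and 1.90 RPKM in FP54 replicates 1 to 3, on 43, 61 and 60 reads. The FP54 libraries all lay above the DMSO libraries. The log2 fold change was 1.32 (SE 0.18, 95% interval 0.91 to 1.72, adjusted p = 0.000212 from limma), and it stayed called under every alternative that tested it, with values of 0.76 to 1.51. HOXA-AS3, an antisense RNA, covers 62.5% of the exonic bases of HOXA7 on the other strand. Whether the reads were counted by strand is not stated, and without strand the reads of HOXA7 and HOXA-AS3 cannot be told apart.

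PBX3 was at 1.52, 1.37 and 1.52 RPKM with DMSO and at 2.29, 2.40 and 1.95 RPKM with FP54 in NB4. All FP54 libraries were higher, with a log2 fold change of 0.55 (SE 0.13, 95% interval 0.27 to 0.84, adjusted p = 0.00462), just over the minimum. Without FP54 replicate 2 it fell just below that minimum (0.50 after rounding, adjusted p = 0.0299). The call also went with median-ratio scaling (0.37) and with quantile normalization (0.15, adjusted p = 0.351). These scalings move the median of all genes tested in NB4 from 0.07 to −0.13 and −0.03, and relative to that median PBX3 was at 0.48, 0.49 and 0.19 in turn. HOXA10 was at 13.1, 12.3 and 14.1 RPKM with DMSO and at 11.3, 11.8 and 12.3 RPKM with FP54, and the groups met at the lowest DMSO library and the highest FP54 library. Its log2 fold change was −0.16 (SE 0.09, 95% interval −0.36 to 0.05, adjusted p = 0.175). HOXA4 was at 2.10, 2.69 and 1.86 RPKM with DMSO and at 2.02, 1.94 and 2.21 RPKM with FP54, which overlap, with a log2 fold change of −0.09 (95% interval −0.42 to 0.24). Both moved further down with another scaling without being called, HOXA10 to −0.35 with median-ratio scaling (adjusted p = 0.00704) and HOXA4 to −0.28 (adjusted p = 0.132), and to −0.45 with quantile normalization (adjusted p = 0.0216).

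The other 6 members had means under 1 RPKM in NB4 and were outside the test. They are given from the fit without that minimum, in which they were judged on few reads. HOXA6 was read 6, 4 and 8 times with DMSO and 17, 14 and 14 times with FP54, which is 0.217 ± 0.0667 and 1.01 ± 0.216 RPKM (SD, n = 3 each). HOXA3 was read 22, 20 and 10 times with DMSO and 28, 46 and 57 times with FP54, from the shallower FP54 libraries, which is 0.190 ± 0.0757 and 0.848 ± 0.208 RPKM. In both genes all FP54 libraries lay above all DMSO libraries, with log2 fold changes of 1.81 (SE 0.22, adjusted p = 0.000377) and 1.72 (SE 0.26, adjusted p = 0.00106). HOXA5 went from 0.270 ± 0.0878 to 0.630 ± 0.214 RPKM on 7 to 15 reads per library (0.96, SE 0.27, adjusted p = 0.0194). MEF2C was at 0.0535, 0.0160 and 0.0228 RPKM with DMSO and at 0.498, 0.124 and 0.221 RPKM with FP54 (1.43, SE 0.33, adjusted p = 0.0082). Without the minimum, 6 of the 10 members passed the call in NB4, all higher, where 27.9% of the 17790 genes with any read in NB4 were called higher and 6.14% lower. Of the 6 members under 1 RPKM, 4 passed, where 58.6% of the 3310 genes with a mean of 0.1 to 1 RPKM were called higher and 1.51% lower, a share near that of these members.

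The mean of the olfactory receptor genes also rose with FP54 in NB4, from at most 0.00387 to at least 0.0509 RPKM, which is of the size of the MEF2C values with DMSO. With that mean subtracted from every gene in each library, HOXA3 and HOXA6 still passed, at 1.65 (adjusted p = 0.0118) and 1.75 (adjusted p = 0.00493), and HOXA5 and MEF2C did not (adjusted p = 0.0996 and 0.105), so that 4 of 10 were left (HOXA3, HOXA6, HOXA7 and PBX3). In that fit 18.7% of all genes were called higher and 6.08% lower, and of those with a mean of 0.1 to 1 RPKM 45.4% and 1.96%. HOXA-AS3 covers 39.3% of the exonic bases of HOXA6, and with HOXA-AS2 17.3% of those of HOXA3, while no annotated antisense exon overlaps HOXA5. Of the 10 members, 6 had all FP54 libraries above all DMSO libraries in NB4 (HOXA3, HOXA5, HOXA6, HOXA7, PBX3 and MEF2C) and none had all below, where 34.3% and 26.2% of the 9853 genes tested did. Of these 6, HOXA3, HOXA5, HOXA6 and MEF2C were not among the 9853, and of the genes with a mean of 0.1 to 1 RPKM 69.1% had all FP54 libraries above and 3.23% all below.

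HOXA9 and MEIS1 stayed low in NB4. HOXA9 was at 0.144, 0.294 and 0.266 RPKM with DMSO and at 0.716, 0.283 and 0.303 RPKM with FP54, where replicate 1 stood alone and the other 2 were close to the highest DMSO library. The log2 fold change of 0.61 had a 95% interval from −0.14 to 1.37 (adjusted p = 0.155). FP54 replicate 1 was also the highest NB4 library for MEF2C and for the monocyte genes S100A8 (3.92 RPKM against 0.193 and 0.258 in replicates 2 and 3) and S100A9 (26.5 against 4.35 and 2.80), and the part of this library in the values of HOXA9 and MEF2C was not tested. MEIS1 was at 0.168, 0.150 and 0.151 RPKM with DMSO and at 0.190, 0.0942 and 0.147 RPKM with FP54, with a log2 fold change of −0.09 (95% interval −0.51 to 0.33). With FP54, HOXA9 in NB4 remained far below the 19.1 RPKM of the lowest MOLM-13 library.

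The difference between the lines was tested in 1 limma model of the 12 libraries, over the 8849 genes with at least 1 RPKM in both lines. Of the 4 members tested, HOXA7 was called, its change being higher in NB4 than in MOLM-13 by 1.40 on the log2 scale (SE 0.29, 95% interval 0.79 to 2.01, adjusted p = 0.00459), where 14.2% of the genes were called 10.5% higher and 3.75% lower in NB4. HOXA7 entered this test through its FP54 libraries in NB4 (1.92 RPKM, against 0.723 RPKM with DMSO). With quantile normalization its difference was 0.85 with an adjusted p of 0.0618. HOXA10 differed by −0.47 (SE 0.18, 95% interval −0.84 to −0.09, adjusted p = 0.094), lower in NB4, and passed with median-ratio scaling (−0.64, adjusted p = 0.0135) and quantile normalization (−0.48, adjusted p = 0.0393). HOXA4 and PBX3 differed by 0.37 (adjusted p = 0.479) and 0.36 (adjusted p = 0.266) and were not called. With quantile normalization HOXA4 was at 0.01 and PBX3 took the other sign at −0.10 (adjusted p = 0.775). For MEIS1, HOXA9 and the other members under 1 RPKM in NB4, the difference was outside this test. Without the minimum HOXA3, HOXA6 and MEF2C passed beside HOXA7, all higher in NB4, where 22.9% of 18290 genes were higher and 3.43% lower. With the olfactory receptor level subtracted as well, MEF2C did not pass (adjusted p = 0.139) and MEIS1 did, lower in NB4 at −0.83 (adjusted p = 0.0348), where 15.9% of the genes were higher and 4.06% lower.

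At the posterior end of the cluster HOXA13 fell in NB4. Of 4 other HOXA-cluster genes (HOXA2, HOXA11, HOXA13 and EVX1, which flanks the cluster), 2 were tested in each line, neither was called in MOLM-13, and HOXA13 was called lower in NB4. HOXA11 went from 6.02 ± 0.226 to 5.01 ± 0.181 RPKM in NB4 (SD, n = 3 each), with all FP54 libraries below all DMSO libraries. It passed an adjusted p below 0.05 without being called, where 22% of all genes tested passed lower. The antisense RNA HOXA11-AS covers 27.2% of its exonic bases. HOXA13, the most posterior gene of the cluster, was at 7.25, 6.28 and 6.46 RPKM with DMSO and at 3.44, 3.27 and 3.86 RPKM with FP54 in NB4. The groups lay well apart, and the log2 fold change was −0.90 (SE 0.11, adjusted p = 7.94e-05), with values of −0.97 to −0.84 when libraries were left out in turn. In MOLM-13 HOXA13 went from 1.35 ± 0.319 to 1.77 ± 0.252 RPKM (SD, n = 3 each), with a log2 fold change of 0.38 (adjusted p = 0.252), and the change in NB4 was lower than that in MOLM-13 by −1.28 on the log2 scale (adjusted p = 0.00205).

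**Figure D4:**
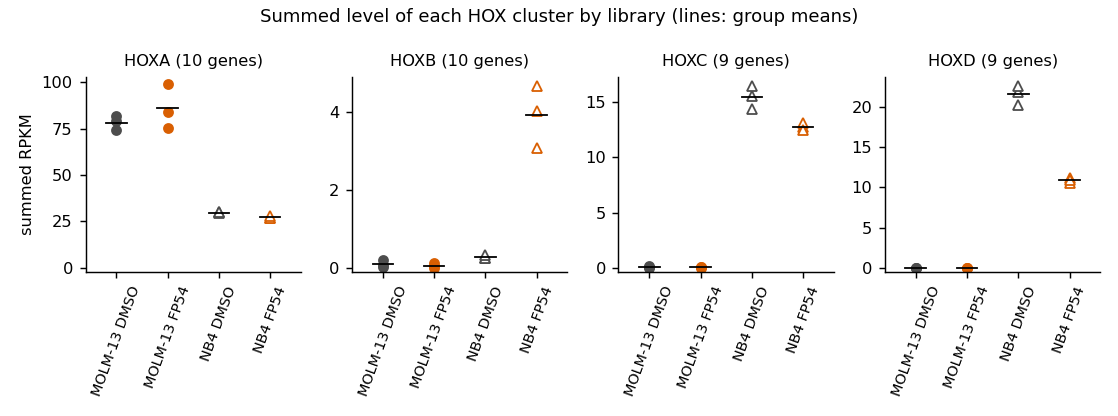
Summed RPKM of the HOX genes examined in each cluster (vertical axes, each with its own scale) by library, with lines at group means, for MOLM-13 (filled circles) and NB4 (open triangles) with DMSO (gray) or FP54 (orange). The HOXB, HOXC and HOXD clusters were near 0 in all MOLM-13 libraries, and in NB4 the HOXB sum was higher and the HOXD sum lower with FP54.

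Of the 4 HOX clusters, MOLM-13 used HOXA nearly alone. The 10 HOXB genes summed to at most 0.206 RPKM in any MOLM-13 library, the 9 HOXC genes to at most 0.145 and the 9 HOXD genes to at most 0.0243. In NB4 with DMSO the HOXC genes summed to 14.4 to 16.4 RPKM and the HOXD genes to 20.3 to 22.6, nearly all of it HOXD13 at 21.3 ± 1.10 RPKM (SD, n = 3), while the HOXB genes summed to 0.249 to 0.320 RPKM. HOXD13, the posterior end of its cluster as HOXA13 is of the HOXA cluster, fell with FP54 to 8.85 ± 0.529 RPKM (log2 fold change −1.26, SE 0.09, adjusted p = 2.36e-06), and it was the 1 HOXD gene tested. HOXB9 was the 1 HOXB gene tested and was called higher, having passed the minimum through its FP54 libraries, from 0.206, 0.127 and 0.242 to 2.30, 2.66 and 1.89 RPKM (log2 fold change 3.04, SE 0.20, adjusted p = 1.34e-06). Of the 3 HOXC genes tested none was called. HOXC10 came nearest, at −0.46 with an adjusted p of 0.00134, and was called with median-ratio scaling (−0.65) and quantile normalization (−0.53). The chosen lists hold few genes that could be tested here, and the counts describe these genes alone, where 29.3% of all genes tested in NB4 were called.

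Related TALE and MEF2 genes gave 1 call in each line, where 18.3% of all genes tested were called in MOLM-13 and 29.3% in NB4. Of 12 such genes, 6 were tested in MOLM-13 with a median log2 fold change of −0.14, and MEF2D, a paralog of MEF2C, was called lower, from 40.1 ± 4.33 to 25.2 ± 5.45 RPKM (SD, n = 3 each, log2 fold change −0.69, SE 0.18, adjusted p = 0.0259). Without DMSO replicate 1 the call of MEF2D was lost (−0.61, adjusted p = 0.0904), as it was without the minimum and with the olfactory receptor level subtracted (−0.69, adjusted p = 0.0862). In NB4, 7 were tested with a median of 0.19, and TGIF1, a TALE repressor, was called higher, from 3.01 ± 0.377 to 5.58 ± 0.399 RPKM (log2 fold change 0.87, SE 0.12, adjusted p = 0.0002).

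The machinery that KMT2A fusions use was read next. All 23 genes of the KMT2A complex and its elongation partners were tested in both lines. In MOLM-13 their median log2 fold change was 0.12 and 1 was called, where 18.3% of all genes tested were. It was DOT1L, the histone methyltransferase that KMT2A fusions recruit. DOT1L was at 15.8, 14.0 and 16.3 RPKM with DMSO and at 8.18, 7.50 and 9.70 RPKM with FP54. The groups lay far apart, with a log2 fold change of −0.86 (SE 0.15, adjusted p = 0.00621), and the call held with each library left out (−0.96 to −0.78). In the same libraries none of the 10 members was called. KMT2A was at 2.19 ± 0.612 and 2.84 ± 0.475 RPKM and MLLT3 at 4.82 ± 0.604 and 5.24 ± 0.536 RPKM with DMSO and FP54 (SD, n = 3 each), and neither was called. These gene counts do not separate the fusion transcript from the normal ones.

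In NB4, which has no KMT2A fusion, the 23 genes had a median log2 fold change of 0.07 and 4 were called, where 29.3% of all genes tested were. AFF4, a scaffold of the super elongation complex, rose from 6.70 ± 1.63 to 11.2 ± 1.17 RPKM (SD, n = 3 each, log2 fold change 0.75, adjusted p = 0.00356), and PSIP1, which tethers KMT2A to chromatin with menin, rose from 88.7 ± 4.90 to 145 ± 15.4 RPKM (0.71, adjusted p = 0.000172). MEN1, which encodes menin, fell from 17.5 ± 2.88 to 11.7 ± 1.07 RPKM (log2 fold change −0.58, adjusted p = 0.00287), and LEO1, a PAF complex subunit, fell from 66.7 ± 4.21 to 46.1 ± 1.86 RPKM (−0.53, adjusted p = 0.000385). Without DMSO replicate 2 both fell short of the minimum size, MEN1 at −0.45 and LEO1 at −0.48. LEO1 did so with quantile normalization as well (−0.38), and the call of AFF4 was lost without the minimum and with the olfactory receptor level subtracted (0.75, adjusted p = 0.0467).

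Genes reported downstream of HOXA9 and MEIS1 moved both ways, as genes at large did. In MOLM-13, 10 of the 14 were tested, with a median log2 fold change of −0.22, and 2 were called lower and 2 higher. Of all genes tested, 9.04% were called lower and 9.3% higher. BCL2, the survival gene, fell from 8.80 ± 2.43 to 2.22 ± 0.955 RPKM, the highest FP54 library being at 3.26 RPKM and the lowest DMSO library at 6.17 RPKM (log2 fold change −1.98, SE 0.30, adjusted p = 0.00385). SOX4, a progenitor transcription factor, fell from 3.33 ± 0.489 to 1.76 ± 0.562 RPKM (−0.92, adjusted p = 0.0248), and its call was lost without DMSO replicate 3 (−0.82, adjusted p = 0.113) or FP54 replicate 1 (−0.73, adjusted p = 0.105). CYBB, a subunit of the phagocyte oxidase, rose from 10.4 ± 0.446 to 16.8 ± 2.33 RPKM (0.68, adjusted p = 0.0141), and ID2, a repressor of helix-loop-helix factors, from 9.28 ± 0.970 to 15.5 ± 4.18 RPKM (0.70, adjusted p = 0.0419). The ID2 call was lost without DMSO replicate 2 (0.73), DMSO replicate 3 (0.61), FP54 replicate 1 (0.60) or FP54 replicate 3 (0.55), without the minimum (0.70, adjusted p = 0.0851) and without an intensity trend (0.70, adjusted p = 0.0546). Without the minimum and with the olfactory receptor level subtracted, ID2 (adjusted p = 0.124) and SOX4 (adjusted p = 0.0891) lost their calls.

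In NB4, 12 of the 14 were tested, with a median of −0.13, and 2 were called lower and 2 higher. Of all genes tested, 10.7% were called lower and 18.6% higher. TRIB2, a pseudokinase, was at 8.18, 6.32 and 6.31 RPKM with DMSO and at 24.8, 22.1 and 23.4 RPKM with FP54 (log2 fold change 1.75, SE 0.11, adjusted p = 1.39e-06), and at no more than 0.0631 RPKM in any MOLM-13 library. ID2 rose from 1.22 ± 0.195 to 3.93 ± 0.482 RPKM (1.61, adjusted p = 1.2e-05). CYBB fell from 28.3 ± 3.31 to 17.4 ± 0.359 RPKM (−0.69, adjusted p = 0.000244) and BCL2 from 7.11 ± 1.45 to 4.47 ± 0.172 RPKM (−0.64, adjusted p = 0.00402). Of the 13 further genes that KMT2A fusions are known to bind, 11 were tested in MOLM-13 with a median of −0.02. None was called, beside the 10 uncalled members, where 18.3% of all genes tested were. In NB4, 8 were tested with a median of 0.18 and 2 were called higher, where 18.6% of all genes tested were. They were RUNX2, a RUNT factor (3.71 ± 0.777 to 6.30 ± 0.207 RPKM, log2 fold change 0.77, adjusted p = 0.00109), and JMJD1C, a jumonji protein (9.32 ± 2.99 to 14.0 ± 0.341 RPKM, 0.62, adjusted p = 0.0119). The call of JMJD1C was lost when DMSO replicate 2 (0.53) or 3 (0.48) was left out, and when any FP54 replicate was (0.62, 0.64 and 0.61 for replicates 1 to 3). It was also lost with median-ratio scaling (0.43) and without the minimum (0.62, adjusted p = 0.0255). Without the minimum and with the olfactory receptor level subtracted, BCL2 (−0.65, adjusted p = 0.034) and JMJD1C (0.62, adjusted p = 0.0921) lost their calls in NB4.

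**Figure D5:**
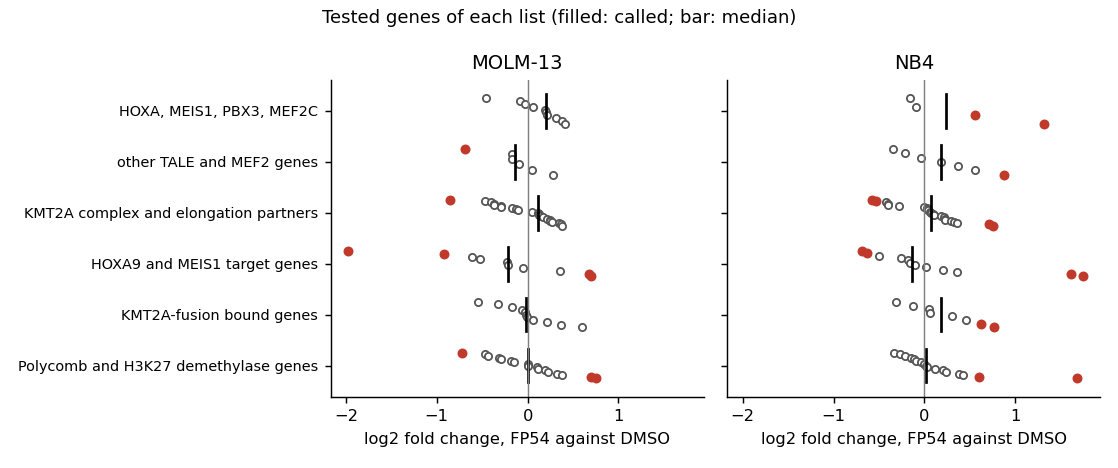
Fitted log2 fold change of FP54 against DMSO (horizontal axis) for every tested gene of the members and 5 related lists, in MOLM-13 (left) and NB4 (right), with called genes filled and bars at the median of each list. The 10 members of MOLM-13 are all open circles between −0.46 and 0.41, and BCL2 at −1.98 is the farthest point of that panel.

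Polycomb proteins hold HOX clusters silent and the demethylases KDM6A and KDM6B remove their histone mark. Of 18 such genes, 17 were tested in each line, with medians of 0.0068 in MOLM-13 and 0.01 in NB4. In MOLM-13 1 was called lower and 2 higher, where 9.04% and 9.3% of all genes tested were. EZH2, the main Polycomb methyltransferase, fell in MOLM-13 from 11.3 ± 0.751 to 6.84 ± 0.886 RPKM (SD, n = 3 each, log2 fold change −0.72, adjusted p = 0.0122), whereas its paralog EZH1 rose from 12.4 ± 0.586 to 20.2 ± 2.62 RPKM (0.70, adjusted p = 0.011) and CBX7, a reader of the mark, from 2.74 ± 0.220 to 4.70 ± 0.609 RPKM (0.75, adjusted p = 0.0152). In NB4 2 were called, both higher, where 18.6% of all genes tested were called higher. KDM6B was at 3.19, 2.52 and 2.00 RPKM with DMSO and at 8.48, 8.88 and 7.66 RPKM with FP54 (log2 fold change 1.68, SE 0.15, adjusted p = 1.26e-05). EZH1 rose from 5.86 ± 0.223 to 8.92 ± 0.220 RPKM (0.60, adjusted p = 0.000322). With median-ratio scaling and quantile normalization EZH1 fell short of the minimum in NB4, at 0.40 and 0.48.

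Markers of myeloid maturation moved in the same libraries. Of 10 monocyte markers, 8 were tested in MOLM-13 and 6 were called higher, none lower, where 9.3% and 9.04% of all genes tested were. The summed level of the list was 745 to 789.8 RPKM with DMSO and 1086 to 1229 RPKM with FP54. CD68, a lysosomal protein of macrophages, went from 192 ± 8.22 to 418 ± 70.9 RPKM in MOLM-13 (log2 fold change 1.11, adjusted p = 0.00257). In NB4, 8 were tested, 4 were called higher and 1 lower, where 18.6% and 10.7% of all genes tested were. The sums there were 61.2 to 63.6 RPKM with DMSO and 81.2 to 121.8 RPKM with FP54. ITGAM, an integrin of mature myeloid cells, went from 3.64 ± 0.319 to 14.3 ± 1.02 RPKM there (1.95, adjusted p = 3.46e-07). The 1 called lower was FCGR1A, from 5.58 ± 0.691 to 2.60 ± 0.290 RPKM (−1.07, adjusted p = 7.72e-05). In MOLM-13 all FP54 libraries of FCGR1A also lay below all DMSO libraries. It passed an adjusted p below 0.05 there without being called, where 9.32% of all genes tested passed lower. The upper NB4 sum included S100A9 at 26.5 RPKM in FP54 replicate 1, against 4.35 and 2.80 RPKM in replicates 2 and 3. Of 10 AML and promyelocyte markers, 9 were tested in MOLM-13, of which 2 were lower and 1 higher, and 8 in NB4, of which 4 were lower and 2 higher. MPO was lower in both, from 16.1 ± 2.92 to 3.79 ± 0.741 RPKM in MOLM-13 (−2.06, adjusted p = 0.000985) and from 2170 ± 119 to 1116 ± 33.6 RPKM in NB4 (−0.96, adjusted p = 1.28e-05). ANPEP was higher in NB4, from 136 ± 15.7 to 553 ± 19.9 RPKM (2.02, adjusted p = 1.88e-07). Their summed level was 954.8 to 1275 RPKM with DMSO and 842 to 1291 RPKM with FP54 in MOLM-13, and 2396 to 2672 and 1738 to 1819 RPKM in NB4. No monocyte or promyelocyte marker was at 0 in every library of a group. Of 9 markers of other cell types, 1 was tested in MOLM-13 and not called, and 2 in NB4, of which NKG7 was higher (1.03, adjusted p = 0.000684). The part of these shifts in the values of the members was not tested.

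The genes most like the HOXA members were found by Pearson correlation of log2 RPKM with the mean profile of the 7 HOXA members over the 12 libraries, among 10704 genes. TSNARE1, RTN2, CPNE8, HILPDA and P4HTM led, each with r of 0.997 or 0.998. TSNARE1 was at 18.5 RPKM with DMSO and 22.4 RPKM with FP54 in MOLM-13, and at 1.41 and 2.78 RPKM in NB4. CPNE8 was at 6.47 and 6.43 RPKM in MOLM-13 and 0.00315 and 0.231 RPKM in NB4. The 12 points share 2 cell lines, 1241 genes had r above 0.95, and the measure says mainly that a gene was higher in MOLM-13.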

How the data were processed

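Of 22 samples, the 12 RNA-seq libraries were used, from both lines with DMSO or FP54. The other 10 (m6A-seq and polysome-seq) were not used here. Per the labels and the methods of the study, poly(A) RNA was selected, stranded libraries were made, reads were trimmed with Cutadapt 4.8, deduplicated, aligned to hg38 with STAR 2.7.11b and counted with featureCounts 2.0.3 on the protein-coding genes of GENCODE. The authors deposited RPKM for 20411 genes. The length and total behind them, and the strand setting of the counting, are not given in the sources used here. RPKM times the GENCODE v44 exon length came out whole, within 0.05 of a read, for 19979 of 20329 genes with a length.

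Log2(RPKM + 0.1) was fitted per line with limma 3.58.1 (R 4.3.3, lmFit and eBayes with an intensity trend) over genes whose mean was 1 RPKM or more, without a replicate block, with Benjamini-Hochberg adjusted p-values. Calls followed the study's cutoff (log2 fold change of 0.5 or more in either direction, p below 0.01), and the difference between lines used an adjusted p below 0.05. Fold changes are on the log2(RPKM + 0.1) scale and understate the change of low genes. DESeq2, which the study used on counts, was not used, as the values are not counts. The code was tested on simulated data. Python 3.11.15, numpy 2.4.6, pandas 2.3.3 and matplotlib 3.10.9 served for tables and figures. Promoters are RefSeq windows (GRCh38.p14), and HOXA5 was without a matching entry.

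The members, the 12 gene lists and the rule for naming genes were chosen with earlier results of these data known, and the lists were written from general knowledge. Some genes of the lists are not reported here. The rule names the 10 members, FTO, the called genes of each list (at most 4 per list and line, by size of fold change) and the 5 genes most like the HOXA members. Of the marker lists only some called genes are given with values, beside PPBP, HBB and EPCAM. Other genes with values (HOXC10, KMT2A, MLLT3, HOXB7, HOXD10, HOXA2) were chosen after their values were seen. Alternatives were pseudocounts of 1 and 0.01, no minimum and a minimum of 5 RPKM, median-ratio and quantile scaling, a replicate block, eBayes without trend or robust, limma-voom on the recovered reads, a cutoff at a log2 fold change of 1 or more with p below 0.05, and each library left out. Subtraction of the olfactory receptor level, with and without the minimum, and the shares called among all genes and genes of 0.1 to 1 RPKM were added after seeing the data.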

Additional observations from a re-analysis of the deposited data

Results flagged for a closer look

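The FP54 effect on HOXA7 and on HOXA13 differed between the lines in the interaction test of limma. Only the members and HOXA13 were looked at for this flag, and 14.2% of the 8849 genes tested passed the same test. HOXA7 changed by 1.40 more on the log2 scale in NB4 than in MOLM-13 (adjusted p = 0.00459), higher in 3 of 3 NB4 libraries with FP54 than in any with DMSO and overlapping in MOLM-13. It came over the minimum of 1 RPKM through its FP54 libraries in NB4 (1.92 RPKM, against 0.723 RPKM with DMSO), and with quantile normalization the difference was 0.85 (adjusted p = 0.0618). HOXA13 changed by −1.28 relative to MOLM-13 (adjusted p = 0.00205), lower in 3 of 3 NB4 libraries with FP54 than in any with DMSO. The cause was not tested.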

How the results depend on the processing

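In MOLM-13, 0 members were called under every alternative but one, and leaving out each library gave 0 to 1 (HOXA3 without DMSO replicate 2). In NB4 the count of 2 became 1 with a pseudocount of 1, median-ratio scaling, quantile normalization or a cutoff at a log2 fold change of 1 or more with p below 0.05, and PBX3 was the member lost in each case. It was 0 of 1 tested with a minimum of 5 RPKM, 6 without a minimum, 4 without a minimum and with the olfactory receptor level subtracted, and 1 to 2 with each library left out. For the difference between lines the count of 1 became 4 without a minimum (HOXA3, HOXA6, HOXA7 and MEF2C), 4 without a minimum and with that level subtracted (HOXA3, HOXA6, HOXA7 and MEIS1, which was lower in NB4 at −0.83, adjusted p = 0.0348), 0 of 1 tested with a minimum of 5 RPKM, and 2 with median-ratio scaling, and it was 1 with each library left out. With a block on the replicate number the counts were 0, 2 and 1, as without it. Same-numbered libraries deviated from their group means with correlations of −0.26, −0.13 and −0.06 in MOLM-13 and −0.14, 0.07 and 0.12 in NB4. In MOLM-13 libraries of unlike number went together: DMSO 1 with FP54 3 (0.59), DMSO 2 with FP54 1 (0.49) and DMSO 3 with FP54 2 (0.47). Every other MOLM-13 pair was negative. A pairing under other numbers was not tested, and the block on replicate number does not address it. No fold change that was called took the other sign. The depth of MOLM-13 FP54 replicate 2 and the few reads of HOXA3, HOXA5, HOXA6, HOXA9, MEIS1 and MEF2C in NB4 limit the precision for these values.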

Other observations

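Other HOX genes at or near 0 in NB4 with DMSO had reads with FP54. HOXD10, in the same cluster as HOXD13, was at 0.0389, 0.0566 and 0.0180 RPKM with DMSO and at 1.59, 1.93 and 1.72 RPKM with FP54. HOXB7, in the same cluster as HOXB9, was at 0.0319, 0.0926 and 0.0589 RPKM with DMSO and at 1.24, 1.58 and 1.01 RPKM with FP54. Both had a mean under 1 RPKM over 6 libraries and were outside the test, and both lay above the olfactory receptor level of NB4 with FP54 (0.0509 to 0.0544 RPKM) in every FP54 library. In MOLM-13, HOXA2 was read 8, 6 and 10 times with DMSO and 2, 0 and 2 times with FP54, from libraries of unequal depth.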
